A study of Homo sapiens with 18 samples.

Results

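The response of THP1 cells to 24 h of IACS-010759 (hereafter IACS) was measured by RNA sequencing as the difference between 3 libraries of cells given 50 nM IACS and 3 libraries of cells given DMSO, the vehicle. THP1 is a monocytic acute myeloid leukemia (AML) cell line with a rearrangement of *KMT2A*, and IACS is an inhibitor of complex I of the respiratory chain. Every gene with a mean of at least 1 TPM (transcript abundance, normalised for length and to a fixed library total) over these 6 libraries was a member of the comparison, which left 14008 of the 45372 symbols. The series holds 18 libraries, and also covers 8 h of 50 nM IACS in THP1 and the same 3 groups in MV4-11, another AML cell line with a *KMT2A* rearrangement. The sources do not say whether the DMSO cells were kept for 8 h or 24 h, and 1 set of DMSO libraries of a cell line served both times. Each cell line is 1 culture model, and the 3 libraries of a group are described only as independent replicates.

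Complex I takes electrons from NADH into the respiratory chain. When it is blocked, NADH is reoxidized less by mitochondria, and cells rely more on glycolysis and can run short of aspartate and asparagine. Mitochondrial stress of this kind can activate a kinase that phosphorylates the translation factor eIF2α. This slows general translation and raises translation of ATF4, a transcription factor for amino acid synthesis, amino acid uptake and stress genes. *TXNIP* and its relative *ARRDC4* are transcribed under MondoA, a sensor of glucose phosphates, and their mRNAs fall when glycolytic flux is high.

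The 6 libraries held between 20096356 and 24847386 reads as recovered from the TPM, and between 46.3% and 60.1% of their TPM lay on 5 noncoding RNAs, with 1.08% to 2.34% on mitochondrially encoded genes. The libraries were therefore rescaled by the median of their gene ratios (factors of 0.817 to 1.18), without which the median log2 fold change of all genes moved from 0.0036 to -0.12. The second IACS library stood apart with 25154 symbols above 0, against 21075 to 22661 in the other 5. The myeloid markers were present, since 11 of 12 reached a mean of 1 TPM, with *LYZ* at 613 to 1100 TPM and *CD14* at 0.197 to 0.429 TPM as deposited. None of the T cell, erythroid, and fibroblast or epithelial markers reached 1 TPM, and *CD2*, *LCK* and *HBB* were listed at 0. Of 5 B cell markers 2 reached 1 TPM, with sums of 4.12 to 4.32 TPM in DMSO and 4.47 to 5.56 TPM at 24 h, and of 4 megakaryocyte markers 1 did. The sum over the 12 myeloid markers, as deposited and without the rescaling, was 2896 to 3250 TPM in the DMSO libraries and 2226 to 2362 TPM at 24 h. After the rescaling, the 11 tested markers had a median log2 fold change of -0.14, and 0 were called by the thresholds given below. The part of the lower sum in the results below was not tested.

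At 24 h, 85 genes (0.607% of those tested) were called higher and 77 genes (0.550%) lower, by limma with replicates blocked by their number. Such calls (1.16% in either direction) passed 0.05 after Benjamini-Hochberg adjustment and differed by more than 1.5-fold on the log2(scaled TPM + 1) scale, which understates the change of genes with few TPM. The shares of all genes called are the reference for the counts of calls in each list below. All 85 rises and all 77 falls had the same sign in the 3 replicate pairs, which adds little, since the calls rest on those pairs. The groups did not overlap for 74 of the 85 and 69 of the 77. Of all genes tested, 13.0% were higher and 14.1% lower without overlap. Without the block, 4 genes were called higher and 9 lower, and the 9 included *TXNIP*, *ARRDC4*, *FTH1*, *SDF2L1* and *CRELD2*. Without the replicates numbered 2, which hold the library that stood apart, the counts were 9 and 11, and over the 3 such omissions they ranged from 0 to 9 and from 1 to 11. Values in the following paragraphs are scaled TPM. In bulk RNA, fewer cells with a transcript and less of it per cell cannot be told apart.

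**Figure D1:**
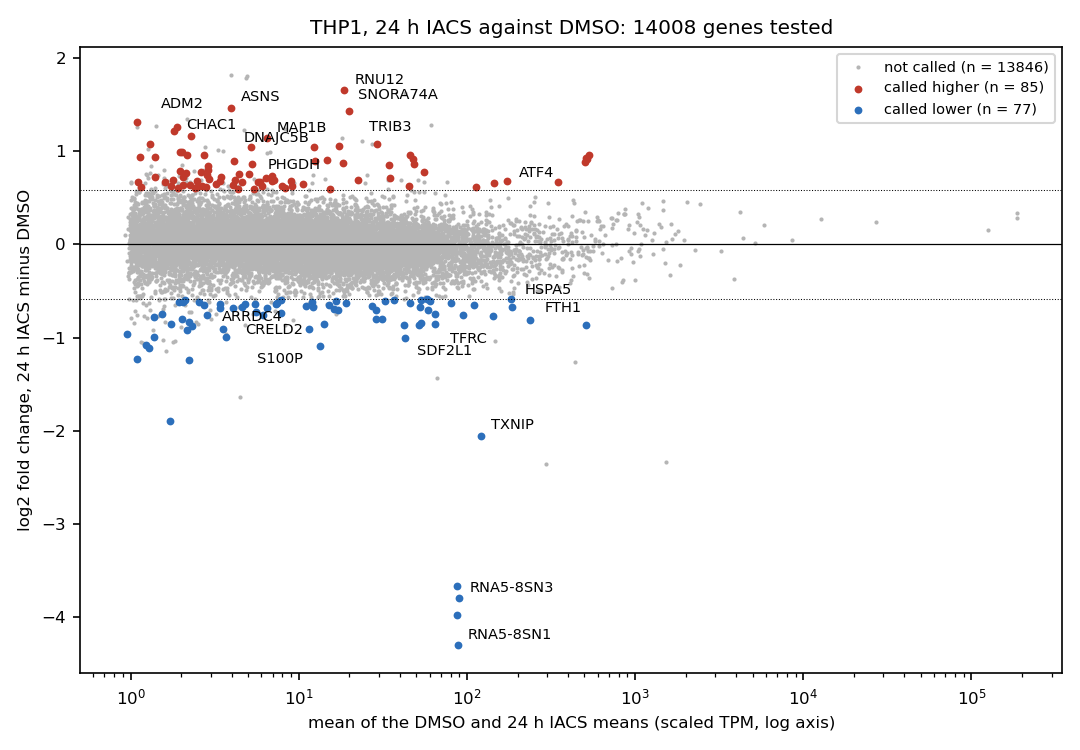
Each point is a gene, with its mean level on a log axis (scaled TPM) and its log2 fold change at 24 h of IACS against DMSO, and dotted lines mark the fold threshold. The 85 genes called higher are red and the 77 called lower blue, with *TXNIP* (-2.05) and copies of a ribosomal RNA (down to -4.29) farthest below 0.

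The largest call among protein-coding genes was the fall of *TXNIP*, which restrains glucose uptake and inhibits thioredoxin (chr1:145992435-145996579, GRCh38). *TXNIP* stood at 166, 169 and 252 TPM in the DMSO libraries and at 42.4, 37.8 and 58.9 TPM at 24 h. The groups were far apart, and the log2 fold change was -2.05 (SE 0.0595, limma adjusted p = 0.00122). Of the calls among the 68 genes named by rule, it was the only one kept in all 3 omissions of a replicate number, with log2 fold changes of -2.10 to -2.01. *ARRDC4*, an alpha-arrestin close to *TXNIP*, was at 15.8, 14.1 and 16.3 TPM with DMSO and at 8.56, 7.44 and 7.24 TPM with IACS. It fell by 0.91 on the log2 scale (SE 0.0717, limma adjusted p = 0.0290). Of the 7 tested genes of the alpha-arrestin and MondoA list, these 2 were the only calls, against 0.550% of all genes called lower. *ARRDC3*, another alpha-arrestin, had a log2 fold change of -0.14 (adjusted p = 0.130), and the list's median was -0.15 against 0.0036 for all genes.

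The genes that ATF4 and its partner CHOP transcribe lay mostly above DMSO. Of the 25 listed, 18 were tested, *CHAC1* and *ADM2* passing the filter only through their IACS libraries. Of the 18, 7 were called higher, these 2 genes among them, and 0 lower (0.607% and 0.550% of all genes). All 18 had a log2 fold change above 0, as did 50.7% of all genes. Their median was 0.56. Without the replicate block 0 of the 18 were called, and likewise in each omission of a replicate number, with medians of 0.41 to 0.68. *ATF4* itself was steady in the DMSO libraries at 134, 130 and 130 TPM, and stood at 244, 226 and 169 TPM at 24 h. The lowest treated library was still above every DMSO library, and the log2 fold change was 0.68 (SE 0.105, limma adjusted p = 0.0327).

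*TRIB3*, a pseudokinase that feeds back on ATF4, rose from 15.1, 16.4 and 24.7 TPM to 44.9, 37.5 and 37.3 TPM (log2 fold change 1.08, adjusted p = 0.0338). *CHAC1*, which degrades glutathione, was below the filter of 1 TPM in every DMSO library, at 0.522, 0.555 and 0.913 TPM. It reached 3.86, 3.34 and 1.68 TPM at 24 h. Its log2 fold change was 1.21 (SE 0.242, adjusted p = 0.0463), its means differed 4.46-fold, and it rested on 11 to 83 reads a library. *ADM2*, which encodes a secreted peptide of the adrenomedullin family, had a similar pattern, with 0.590, 0.575 and 0.827 TPM against 3.76, 4.02 and 1.61 TPM (1.26, adjusted p = 0.0445). In both genes, every DMSO library was below 1 TPM and the third IACS library was the lowest of the treated libraries. The angiogenic factor *VEGFA* stood at 2.05, 2.11 and 3.63 TPM with DMSO and 5.62, 6.38 and 4.80 TPM with IACS (0.90, adjusted p = 0.0491). *JDP2* (0.79), a leucine zipper repressor, and *TSC22D3* (0.64), a glucocorticoid-induced gene, completed the 7 and are named here after their values were seen.

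Asparagine synthetase, *ASNS*, had the largest called rise among protein-coding genes named here. It was at 1.61, 0.969 and 2.41 TPM in the DMSO libraries and at 7.43, 5.86 and 5.36 TPM at 24 h, a 3.73-fold difference of the means (log2 fold change 1.46, SE 0.186, limma adjusted p = 0.0292). *PHGDH*, the first enzyme of serine synthesis, went from 11.6, 12.5 and 13.5 TPM to 26.8, 27.0 and 18.4 TPM (0.87, adjusted p = 0.0349). *ALDH1L2*, a mitochondrial enzyme that uses formyltetrahydrofolate, went from 9.70, 9.25 and 10.9 TPM to 21.5, 21.8 and 15.8 TPM (0.91, adjusted p = 0.0319). These 3 were the calls among 21 tested genes of serine, folate, proline and asparagine synthesis (0.607% of all genes were called higher). The median of the 21 was only 0.0032. 10 members lay below 0 (49.3% of all genes), among them *GOT2* (-0.38), the mitochondrial aspartate aminotransferase. Without the block, 0 of the 21 were called.

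Of 15 amino acid transporters, *SLC7A11*, the cystine and glutamate exchanger, was the 1 call, with 3.97, 3.69 and 2.58 TPM against 8.81, 7.98 and 4.65 TPM (0.86, limma adjusted p = 0.0290). The list's median was 0.17, or 0.070 without the replicates numbered 1. Without the scaling it was 0.046, where the median of all genes was -0.12. Without the block 0 of the 15 were called. *SLC38A1*, a carrier of neutral amino acids, lay just under the fold threshold at 0.56 (adjusted p = 0.0290). None of the 19 tested tRNA synthetases of the cytosol was called, with a median of 0.18. The member with the largest value was *GARS*, the glycine enzyme, at 57.3, 56.5 and 62.1 TPM against 88.5, 83.5 and 69.6 TPM (0.45, adjusted p = 0.0534). At adjusted p alone, 3 synthetases passed upward and 1 downward, as did 3.22% and 4.13% of all genes. None of the 15 genes for the eIF2α kinases, the OMA1 and DELE1 relay and the eIF2 factors was called, and their log2 fold changes ran from -0.26 to 0.24 with a median of 0.018.

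**Figure D2:**
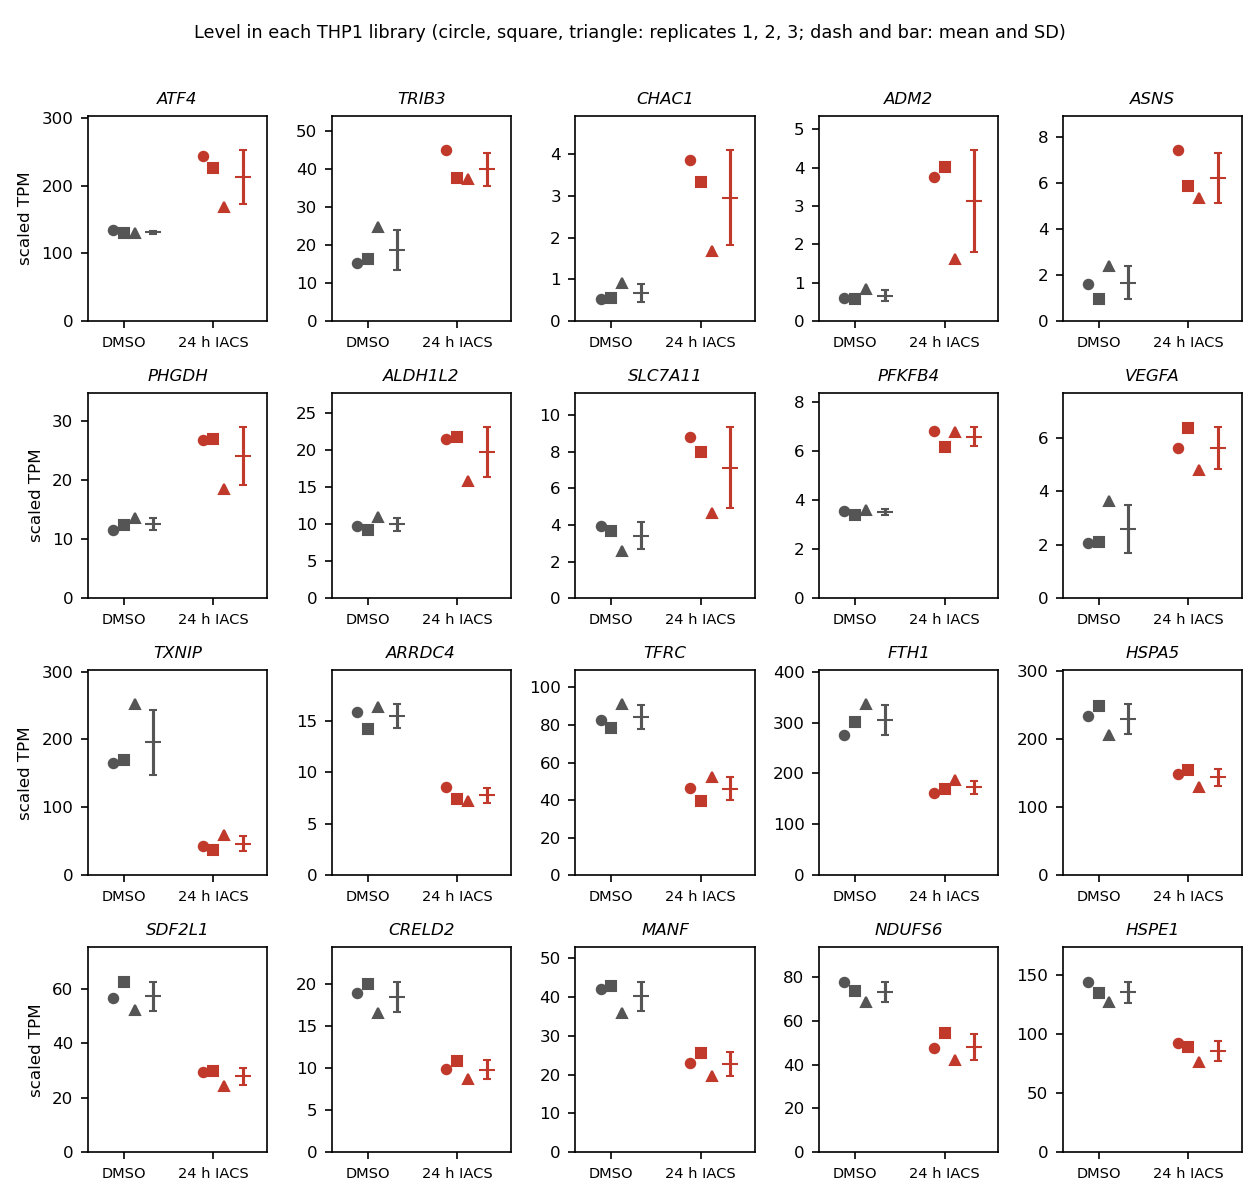
Scaled TPM of 20 named genes, all chosen among the calls, in each of the 3 DMSO and 3 IACS libraries of THP1, with the mean and SD. In all 20 panels the groups do not overlap, the first 10 genes being higher at 24 h (*ATF4* at 169 to 244 TPM against 130 to 134 TPM) and the last 10 lower.

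The promoters of the genes called were searched in RefSeq sequences (GRCh38.p14) over the 250 bases before the start of transcription, on both strands, with 9978 of the 14008 genes matched. TGATGNAA, the core of the element that ATF4 binds with C/EBP partners, was found for 3 of the 35 matched genes called higher (*ASNS*, *CHAC1* and *LIPN*) and for 1.36% of the matched genes tested. TGATGNAA was also in 2 of the 39 called lower, and in 3 of the 16 matched promoters of the ATF4 list (*CHAC1*, *HERPUD1* and *PPP1R15B*). *CHAC1* is in these counts although it passed the filter only through its IACS libraries. The matches of *ASNS* and *CHAC1* are shown because both genes are known ATF4 targets that were called higher, each in 30 bases with the match in capitals. The one of *ASNS* begins 68 bases before the start, on the minus strand of chr7:97872458-97872487, and the one of *CHAC1*, in reverse, 209 bases before it on the plus strand of chr15:40953251-40953280.
ASNS: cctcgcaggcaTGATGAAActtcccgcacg
CHAC1: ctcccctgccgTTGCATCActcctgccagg
CACGTG, the E-box core that factors of the MondoA and MYC families bind, was found in 5 of 35 matched genes called higher, 5 of 39 called lower and 9.01% of those tested. *TXNIP* holds no such match in this window. *ARRDC4* holds it 210 bases before its start, shown in capitals in the 250 bases of chr15:97960453-97960702, plus strand.
ARRDC4: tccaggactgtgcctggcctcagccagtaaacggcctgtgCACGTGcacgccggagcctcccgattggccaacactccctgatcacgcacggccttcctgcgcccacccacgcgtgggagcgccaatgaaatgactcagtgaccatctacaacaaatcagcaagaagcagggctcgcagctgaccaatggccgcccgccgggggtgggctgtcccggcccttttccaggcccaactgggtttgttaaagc

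Of 22 tested chaperones, folding enzymes and factors of degradation of the endoplasmic reticulum (ER), 4 were called lower and 0 higher. Of all genes, 0.550% were called lower and 0.607% higher. The list's median was -0.22, with 17 members below 0 and 5 above, against 49.3% of all genes below 0. *SDF2L1*, a co-chaperone of the ER, fell from 56.8, 62.7 and 52.2 TPM to 29.4, 30.05 and 24.4 TPM (-1.01 on the log2 scale, SE 0.0538, limma adjusted p = 0.0122). *CRELD2* and *MANF*, secreted ER stress proteins, fell by 0.85 and 0.80 on the log2 scale (adjusted p = 0.0208 and 0.0237). *CRELD2* was at 19.0, 20.05 and 16.5 TPM and then at 9.89, 10.9 and 8.72 TPM, and *MANF* at 41.9, 42.6 and 35.8 TPM and then at 23.0, 25.6 and 19.6 TPM. *HSPA5*, the main Hsp70 chaperone of the ER, was abundant at 234, 247 and 205 TPM with DMSO and stood at 148, 154 and 129 TPM with IACS (-0.67, adjusted p = 0.0290). Within each of the 4 genes the third library was the lowest in both groups. Without the block, *SDF2L1* and *CRELD2* were still called and *MANF* and *HSPA5* were not. *XBP1*, a transcription factor of the ER stress response, had a log2 fold change of 0.28.

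CCAAT, the box that NF-Y binds and a part of the ER stress response element, was in 17 of the 21 matched promoters of that list and in 35.7% of the matched genes tested. The whole element, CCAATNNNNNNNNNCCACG, which also holds the site of ATF6, was in 7 of the 21 and in 0.140% of the matched genes tested. The whole element was added to the search after the values were seen, and whether it has a part in the falls was not tested. Members with it that were not called were *CALR* (-0.47), *HSP90B1* (-0.38), *CANX* (-0.082), *ERO1B* (0.026) and *XBP1* (0.28). The 4 genes called lower are shown in the part of the 250 bases that no annotated exon covers, with CCAAT or its reverse in capitals, and the CCACG of a whole element as well. *CRELD2* and *HSPA5* each hold 1 whole element, and *SDF2L1* and *MANF* hold none.
SDF2L1 (chr22:21642052-21642301, plus strand): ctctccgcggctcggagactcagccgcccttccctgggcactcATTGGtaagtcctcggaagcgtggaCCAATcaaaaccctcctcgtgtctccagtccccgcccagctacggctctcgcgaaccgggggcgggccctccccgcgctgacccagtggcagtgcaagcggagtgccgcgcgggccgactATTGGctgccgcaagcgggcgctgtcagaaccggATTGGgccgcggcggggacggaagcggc
CRELD2 (chr22:49918439-49918633, plus strand): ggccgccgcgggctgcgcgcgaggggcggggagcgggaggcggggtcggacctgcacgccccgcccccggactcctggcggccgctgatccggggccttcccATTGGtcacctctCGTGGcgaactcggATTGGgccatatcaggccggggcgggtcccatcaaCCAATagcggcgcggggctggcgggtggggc
HSPA5 (chr9:125241383-125241593, minus strand): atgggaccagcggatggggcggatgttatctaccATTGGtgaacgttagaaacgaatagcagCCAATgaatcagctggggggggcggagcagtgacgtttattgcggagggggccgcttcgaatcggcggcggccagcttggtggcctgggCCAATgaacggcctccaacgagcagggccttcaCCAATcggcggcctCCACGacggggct
MANF (chr3:51385049-51385290, plus strand): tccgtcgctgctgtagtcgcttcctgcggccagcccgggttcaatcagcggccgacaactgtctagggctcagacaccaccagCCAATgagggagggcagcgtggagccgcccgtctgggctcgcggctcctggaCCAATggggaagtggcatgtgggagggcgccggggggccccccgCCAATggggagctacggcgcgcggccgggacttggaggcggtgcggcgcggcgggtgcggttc
No match for a motif says only that its letters are not in the window.

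Iron handling held 2 calls among 17 tested genes, both lower, against 0.550% of all genes called lower. *TFRC*, the transferrin receptor that takes up iron, was at 82.8, 78.2 and 90.9 TPM with DMSO and at 46.5, 39.7 and 52.3 TPM at 24 h (-0.86, SE 0.0577, adjusted p = 0.0237 by limma). *FTH1*, the heavy chain of the iron store ferritin, was at 276, 302 and 335 TPM and then at 162, 169 and 187 TPM (-0.81, SE 0.0569, adjusted p = 0.0241). The groups were apart in both genes, while *FTL*, the light chain, had a log2 fold change of 0.049. Without the block *FTH1* was called and *TFRC* was not. *FTH1* has many processed copies in the genome, among which the counting could split reads. None of the 19 genes of heme and iron-sulfur cluster synthesis was called by limma.

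In glycolysis, *PFKFB4*, which sets the level of the activator of phosphofructokinase, was the 1 call of 25 tested genes. It was at 3.54, 3.37 and 3.60 TPM with DMSO and at 6.82, 6.15 and 6.80 TPM at 24 h, with little spread in either group (0.75 on the log2 scale, SE 0.0674, limma adjusted p = 0.0290). It was called without the block as well. The list's median was -0.076. *LDHA*, lactate dehydrogenase, had a log2 fold change of -0.52 (adjusted p = 0.0290) and *SLC2A3*, a glucose transporter, one of 0.65 (adjusted p = 0.0514). None of the 14 tested members of the list of hypoxia-inducible factor targets outside glycolysis was called (median 0.12). Their largest value was 0.39, for *NDUFA4L2* at 0.694 to 2.12 TPM. *VEGFA* (0.90, called higher) was placed in the ATF4 list alone, so the count holds only for the list as written.

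Nuclear genes of the respiratory chain lay slightly lower as groups, with few calls. Of 37 nuclear complex I subunits, 33 were below 0, against 49.3% of all genes, and 23 lay lower without overlap, against 14.1%. The median was -0.16 with the scaling and -0.29 without it, where the medians of all genes were 0.0036 and -0.12. *NDUFS6*, an accessory subunit, was the 1 call, at 77.6, 73.4 and 68.3 TPM and then 47.7, 54.2 and 42.0 TPM (-0.60, limma adjusted p = 0.0290). Of 40 subunits of complexes II to V, 35 were below 0 with a median of -0.14, and *ATP5MC1*, a subunit of the proton-driven ring of ATP synthase, was the 1 call (-0.63, adjusted p = 0.0324). Of 16 mitochondrial chaperones and proteases, *HSPE1*, the lid of the matrix chaperonin, was the 1 call, with 145, 135 and 127 TPM against 92.4, 89.1 and 76.6 TPM (-0.65, adjusted p = 0.0290). In the citric acid cycle, 19 of 20 genes were below 0 (median -0.15) and 0 were called, *FH*, fumarase, having the largest value (-0.39, adjusted p = 0.0349). Without the block or with any replicate number left out, *NDUFS6*, *ATP5MC1* and *HSPE1* were not called.

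None of the 15 genes of the mitochondrial genome was called. The RNAs of the small and large mitochondrial ribosome subunits had log2 fold changes of -2.35 (*MT-RNR1*, adjusted p = 0.1003) and -2.34 (*MT-RNR2*, adjusted p = 0.0825). *MT-RNR1* was at 318, 277 and 832 TPM with DMSO and at 55.9, 253 and 37.6 TPM with IACS. The groups did not overlap, but the second IACS library, which stood apart above, was close to the DMSO range, and without that replicate number the value was -3.46 (adjusted p = 0.0639). The order of the treated libraries was the same for copies of the 5.8S RNA of the cytosolic ribosome. *RNA5-8SN1* was at 116, 135 and 242 TPM and then at 7.49, 27.0 and 1.15 TPM (-4.29, limma adjusted p = 0.0418). *RNA5-8SN2* (-3.66), *RNA5-8SN3* (-3.79) and RF00002_5 (-3.97) had the next falls. Without the replicates numbered 2, *RNA5-8SN1* had a log2 fold change of -5.28 (limma adjusted p = 0.0638), while the other 3 copies were still called (adjusted p = 0.0444 to 0.0479). The libraries held 2 to 376 reads of *RNA5-8SN1*. Whether library preparation retained ribosomal RNAs equally in all libraries was not tested, so these falls cannot be assigned to the cells alone. The 4 entries are near-identical copies of 1 RNA, so that reads cannot be assigned to 1 of them, and 0 of the 4 were called without the block.

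Small nuclear and nucleolar RNAs made up several of the largest rises. The list of abundant small noncoding RNAs held 2 calls upward and 1 downward (*RNA5-8SN3*) among 12 tested members, with a median of 0.28. Over all genes, 0.607% were called higher and 0.550% lower. Without the block, the list held 0 calls in either direction. *RNU12*, the U12 RNA of the minor spliceosome, was at 8.44, 6.96 and 7.88 TPM and then at 19.1, 19.5 and 49.4 TPM (log2 fold change 1.65, limma adjusted p = 0.0341). *SNORA74A* and *SNORA74B*, RNAs that guide pseudouridylation, had log2 fold changes of 1.42 and 1.04 (adjusted p = 0.0290 in both). *SNORA74A* was at 9.35, 9.59 and 11.4 TPM and then at 24.1, 22.9 and 42.8 TPM. *RNVU1-18*, a variant of the U1 RNA, overlapped between the groups, at 142, 376 and 598 TPM against 326, 696 and 1035 TPM, and its call (0.96, adjusted p = 0.0290) rested on the pairing of the libraries. These RNAs are short, have near-identical copies and rested on as few as 10 reads a library for *SNORA74B*. Whether library preparation retained such RNAs equally in all libraries was not tested, so their rises cannot be assigned to the cells alone. FP236383.3 (0.96) and AC112482.2 (1.04) are further rises, of genes known here only by clone identifiers.

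The remaining named rises had diverse roles. *MAP1B*, which binds microtubules, was at 3.07, 3.35 and 4.54 TPM and then at 10.3, 10.2 and 7.18 TPM (1.13, limma adjusted p = 0.0341). *DNAJC5B*, a J-domain co-chaperone, was at 9.22, 9.47 and 14.2 TPM and then at 20.2, 20.1 and 31.2 TPM (1.05, SE 0.0521, adjusted p = 0.0122). Among the falls, *S100P*, a calcium-binding protein, went from 13.03, 15.1 and 28.03 TPM to 9.33, 5.35 and 9.37 TPM (-1.09, adjusted p = 0.0416). Without the block *MAP1B*, *DNAJC5B* and *S100P* were not called, and without the replicates numbered 2 *DNAJC5B* was called while *MAP1B* and *S100P* were not (adjusted p = 0.0909 and 0.107). *FAR1-IT1*, an intronic transcript, and AL034430.1 had log2 fold changes of -0.996 and -0.90. Chosen after their values were seen, *ASS1* (0.77), argininosuccinate synthase, *GRB10* (0.96), an adaptor of the insulin receptor, *CCPG1* (0.69), a receptor for autophagy of the ER, and *CCNG1* (0.61), cyclin G1, were also called higher. *MYBL2* (-0.77), a cell cycle transcription factor, *SRM* (-0.70), spermidine synthase, *CHCHD10* (-0.85), a protein of the mitochondrial intermembrane space, and *GAS6* (-0.80), a ligand of the TAM receptors, were called lower.

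**Figure D3:**
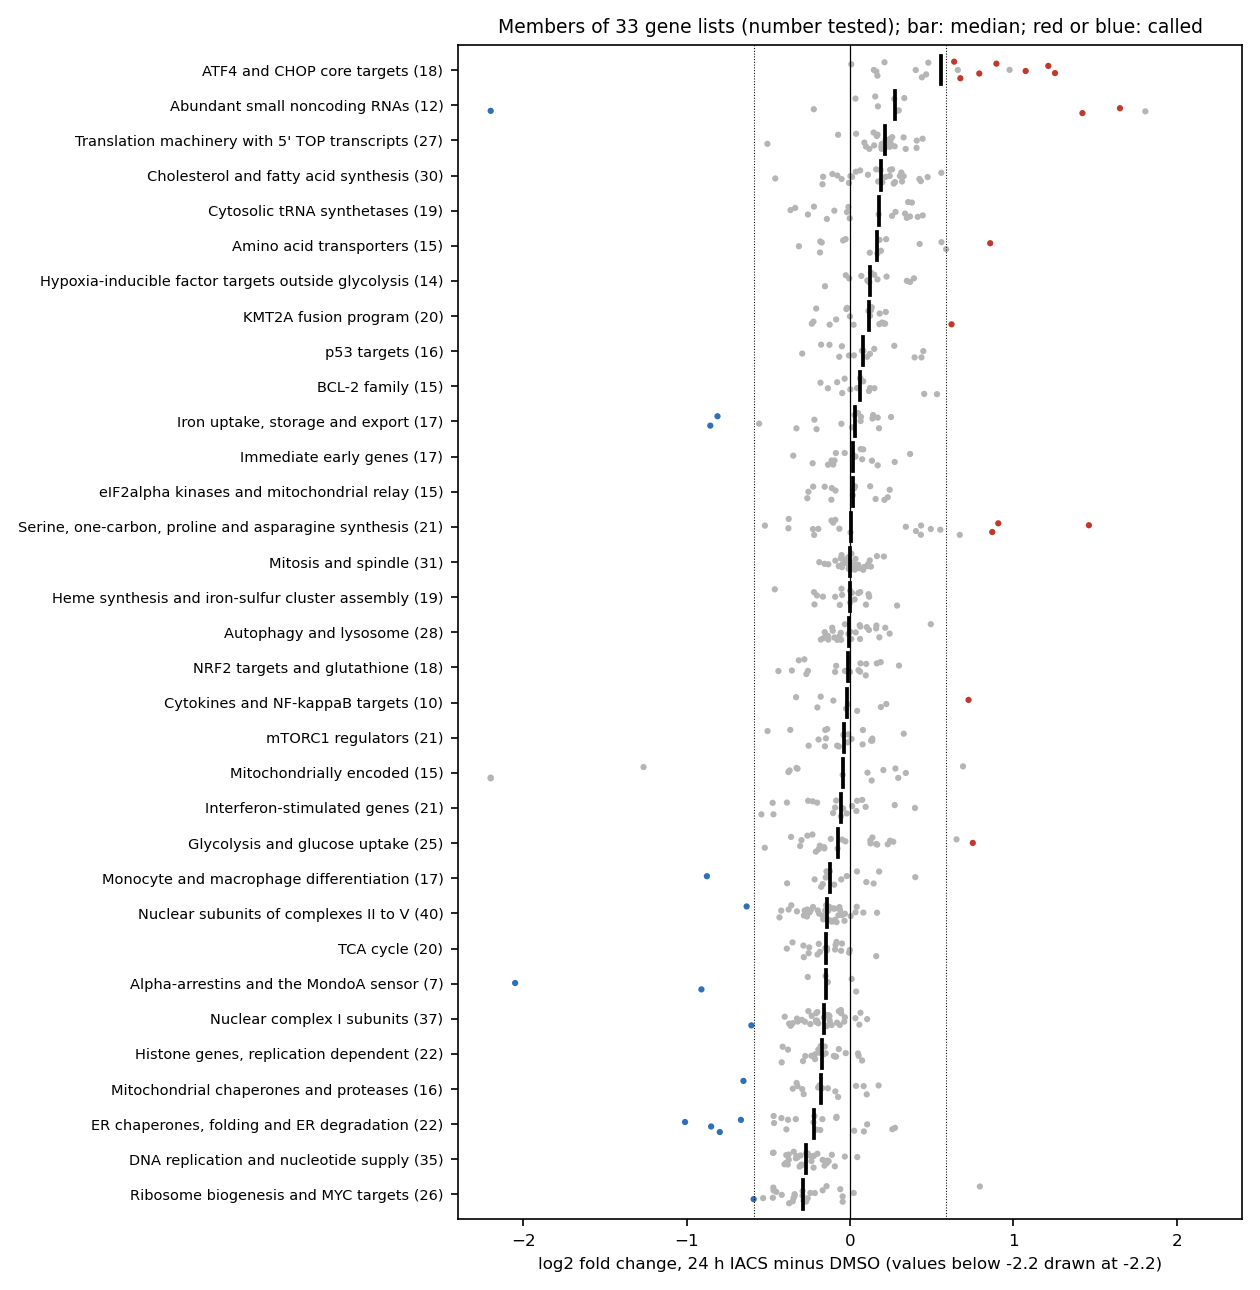
Log2 fold changes at 24 h against DMSO of the tested members of 33 gene lists, ordered by their median (black bar), with calls in red or blue and dotted lines at the fold threshold. The ATF4 and CHOP list has the highest median (0.56), and the lists of DNA replication (-0.27) and ribosome biogenesis (-0.29) the lowest.

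The lists of growth and division held 1 call and had medians of both signs. Of 35 genes of DNA replication and nucleotide supply, 34 were below 0 (49.3% of all genes) and 25 lay lower without overlap (14.1% of all genes), with a median of -0.27 and 0 calls. *DUT*, which clears dUTP, had the largest value, from 71.0, 66.4 and 65.9 TPM to 51.7, 45.1 and 49.1 TPM (-0.47, limma adjusted p = 0.0290). Of 26 genes of ribosome biogenesis and MYC targets, 24 were below 0 (median -0.29), and *NCL*, nucleolin, was the 1 call (-0.59, adjusted p = 0.0442). *NCL* was at 227, 219 and 211 TPM and then at 150, 178 and 114 TPM, and was not called without the block. The 31 genes of mitosis had a median of 0.0029 and 0 calls (largest value *CENPE*, a kinetochore motor, 0.21), and the 22 replication-dependent histones one of -0.17 and 0 calls (*HIST1H2AE*, -0.42). Without the replicates numbered 2, the histone median was -0.027 and *HIST1H2AE* was at -0.26, and without those numbered 3 the median was -0.27. The 27 genes of the translation machinery were mostly above 0 (25 of 27, against 50.7% of all genes, median 0.22) with 0 calls. The largest value was that of *RPLP1*, a ribosomal stalk protein, in the other direction (-0.51). Without the scaling, the medians were -0.40 for DNA replication, -0.42 for ribosome biogenesis, -0.13 for mitosis and 0.079 for the translation machinery. The median of all genes was then -0.12.

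Among the leukemia and myeloid lists, *SOCS2*, a suppressor of cytokine signaling, was the 1 call of 20 tested genes of the KMT2A fusion program, at 1.04, 1.25 and 1.19 TPM and then 2.65, 2.16 and 2.15 TPM (0.62, limma adjusted p = 0.0440). It was not called without the scaling or without the block. *VCAN*, the proteoglycan versican, was the 1 call of 17 genes of monocyte differentiation, at 3.52, 2.80 and 3.58 TPM and then 1.12, 1.05 and 1.92 TPM (-0.88, adjusted p = 0.0310). *IL23A*, a cytokine subunit, was the 1 call of 10 cytokine and NF-κB genes, at 2.56, 2.58 and 1.92 TPM and then 4.62, 4.53 and 4.42 TPM (0.73, adjusted p = 0.0290). Neither *VCAN* nor *IL23A* was called without the block.

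Of the 15 tested BCL-2 family genes, 0 were called and the median was 0.062. *MCL1*, the anti-apoptotic member, stood at 131, 133 and 130 TPM with DMSO and at 142, 131 and 139 TPM with IACS. The groups overlapped, and the log2 fold change was 0.062 (SE 0.0569, limma adjusted p = 0.496), with the sign reversed without the scaling (-0.074). The largest value was that of *BBC3*, a BH3-only gene, from 1.78, 2.51 and 2.01 TPM to 3.39, 3.61 and 3.39 TPM (0.53, adjusted p = 0.0379), under the fold threshold.

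The lists of p53 targets (16 tested), autophagy and lysosome (28), mTORC1 regulators (21), NRF2 and glutathione (18), interferon-stimulated genes (21), immediate early genes (17) and cholesterol and fatty acid synthesis (30) held 0 calls by limma. Their medians lay between -0.056 (interferon-stimulated genes) and 0.078 (p53 targets), except for lipid synthesis. *CCNG1*, *SLC7A11* and *FTH1*, called above, were not placed in the p53 or NRF2 lists, so the counts hold only for the lists as written. At adjusted p alone, 1 p53 target passed upward, 3 genes of lipid synthesis passed upward and 1 downward, 1 interferon-stimulated gene passed upward and 2 downward, 1 mTORC1 regulator passed upward and 1 downward, and 1 NRF2 target passed upward. The shares over all genes were 3.22% upward and 4.13% downward. Among the largest values were those of *CDKN1A*, the cell cycle inhibitor p21 (0.45, adjusted p = 0.0324), *WIPI1*, an autophagy protein (0.49, adjusted p = 0.0875), and *AKT1S1*, an mTORC1 inhibitor (-0.50, adjusted p = 0.0366). *IFI6*, an interferon-induced mitochondrial protein (-0.54, adjusted p = 0.0290), *DUSP6*, an ERK phosphatase (0.37, adjusted p = 0.0588), and *INSIG1*, which holds back sterol synthesis (0.56, adjusted p = 0.0292), followed. The lipid synthesis list had 23 of 30 members above 0, against 50.7% of all genes. Its median was 0.19, or 0.062 without the scaling (-0.12 for all genes) and 0.12 without the replicates numbered 1.

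Whether the 24 h libraries had moved on from 8 h was tested directly between the treated groups, in 1 fit of the 9 THP1 libraries. Of 13928 genes, 77 (0.553%) were higher and 54 (0.388%) lower at 24 h than at 8 h. Without the block the counts were 33 and 35, and with any replicate number left out they were 0 or 1 in each direction. The 24 h libraries are the same as in the comparison with DMSO. Against DMSO at 8 h, 2 genes (0.0144% of 13893) were called by limma, *TXNIP* and *ARRDC4*, with the DMSO libraries shared between both times.

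*TXNIP* was at 30.9, 28.02 and 40.8 TPM at 8 h, below its 24 h level in all 3 pairs, and 24 h was higher than 8 h by 0.44 (log2, limma adjusted p = 0.00782). *ARRDC4*, at 6.18, 5.52 and 5.54 TPM at 8 h, was higher at 24 h by 0.35 (adjusted p = 0.0189). Both thus stood nearer to DMSO at 24 h than at 8 h. *CHAC1*, at 2.64, 3.92 and 2.04 TPM at 8 h, differed between the times by 0.00096 (adjusted p = 0.998), and *TRIB3* (0.19), *ATF4* (0.17) and *ASNS* (0.55) were not called either (adjusted p = 0.458, 0.237 and 0.112). *PFKFB4* was at 3.61, 3.52 and 3.59 TPM at 8 h, against 3.32 to 3.54 TPM in DMSO on the same scaling, and was higher at 24 h by 0.71 (adjusted p = 0.00484). *TFRC* (-0.73), *FTH1* (-0.97), *SDF2L1* (-0.68) and *VCAN* (-1.07) were lower at 24 h than at 8 h (adjusted p = 0.00484, 0.00484, 0.00755 and 0.00755).

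**Figure D4:**
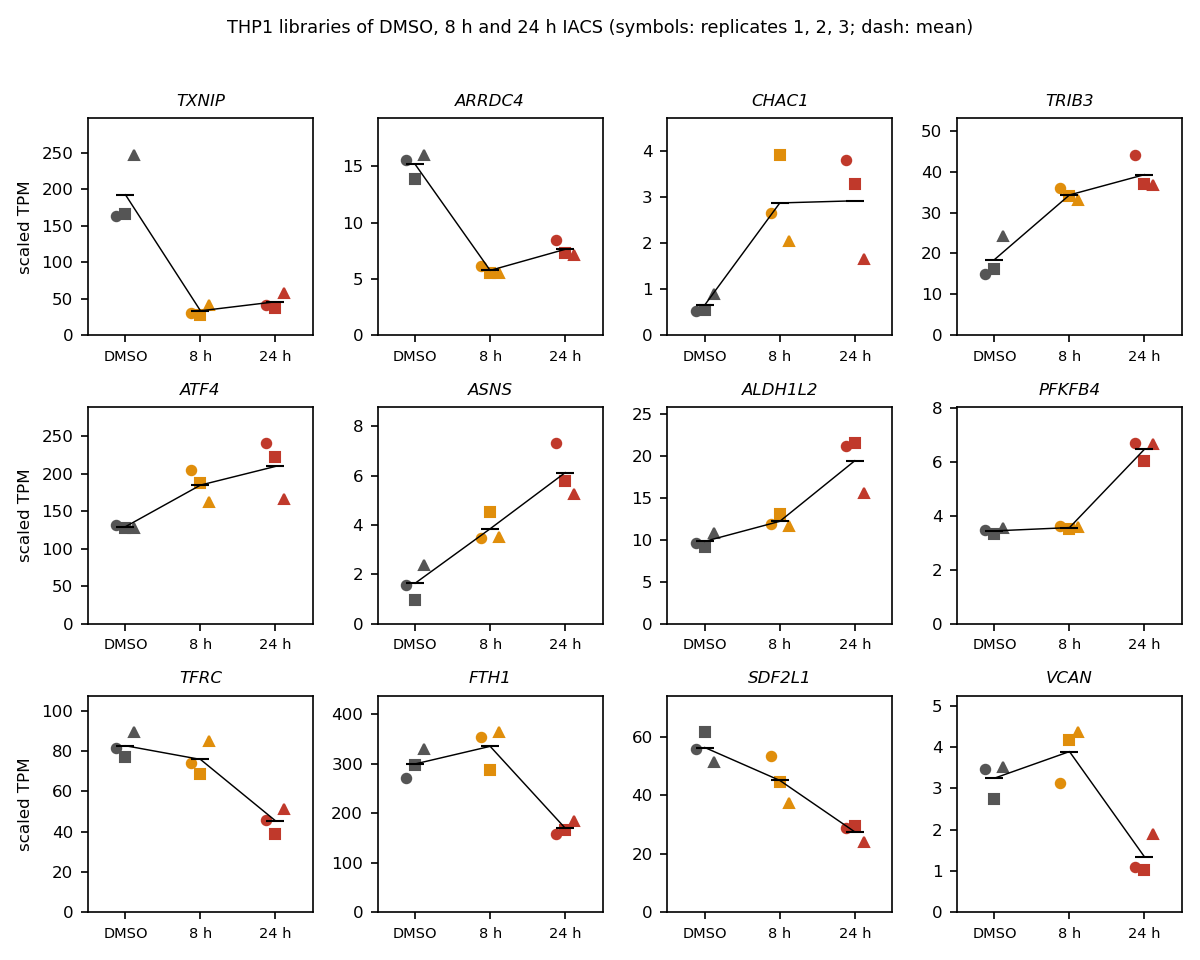
Scaled TPM of 12 genes in the THP1 libraries of DMSO, 8 h and 24 h of IACS, with the means joined. *TXNIP* is lowest at 8 h (28.02 to 40.8 TPM), while *PFKFB4* and *FTH1* are near DMSO at 8 h and apart from it at 24 h.

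The largest difference from 8 h among rises was that of *MT-ND6*, a complex I subunit on the light strand of mitochondrial DNA (1.83, adjusted p = 0.0201), at 15.0, 13.5 and 16.6 TPM at 8 h and 32.2, 121 and 46.8 TPM at 24 h. Its highest value was again in the second IACS library, and the 24 h and DMSO libraries (35.8, 47.2 and 25.0 TPM) overlapped. *INSIG1* followed the same course, with 28.1, 22.8 and 37.3 TPM at 8 h against 57.9, 51.6 and 89.6 TPM at 24 h (1.11, adjusted p = 0.00484) and 35.5, 39.1 and 58.8 TPM in DMSO. *CSPG4*, a membrane proteoglycan, was higher at 24 h than at both 8 h (0.98, adjusted p = 0.0146) and DMSO (0.73, adjusted p = 0.0349). The levels at 8 h come from the scaling over 9 libraries and differ by a few percent from those over 6.

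Whether the response differed from that of MV4-11 was tested as the difference of the 24 h effects, over 12575 genes and 12 libraries. The effect was called higher in THP1 for 5 genes (0.0398%) and lower for 11 (0.0875%). The THP1 libraries are those of the comparison above. With any replicate number left out, 0 to 8 genes were called higher and 0 lower. The fall of *TXNIP* was larger in THP1, -2.03 against -0.64 in MV4-11 (difference -1.39, limma adjusted p = 0.00984). *ARRDC3* had effects of -0.12 and 0.84 (difference -0.96, adjusted p = 0.0286). *FTH1* had effects of -0.79 and -0.095 (difference -0.70, adjusted p = 0.0495). *DNAJC5B* rose in THP1 with an effect of 1.07 against -0.018 (difference 1.09, adjusted p = 0.0329), and *SNORA74A* and *SLC38A1* differed by 1.65 and 0.71 (adjusted p = 0.0495 in both). *LILRA2* and *IGSF6*, myeloid receptors, and *ALDH2*, mitochondrial aldehyde dehydrogenase, were lower in THP1 and higher in MV4-11 in their means, with differences of -0.74, -0.82 and -0.82 (adjusted p = 0.0286, 0.0495 and 0.0495).

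For *PHGDH*, *CHAC1*, *ASNS* and *TRIB3* the difference between the cell lines was not called. *PHGDH* had effects of 0.89 in THP1 and 0.96 in MV4-11 (difference -0.072, adjusted p = 0.866) and *CHAC1* of 1.25 and 1.00 (difference 0.24, adjusted p = 0.718). *ASNS* (1.49 and 0.49) and *TRIB3* (1.10 and 0.15) had larger effects in THP1, but their differences of 1.00 and 0.94 did not pass (adjusted p = 0.115 in both). Without the block, 0 genes were called higher and 1 lower in this comparison, and without the scaling 9 and 362.

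**Figure D5:**
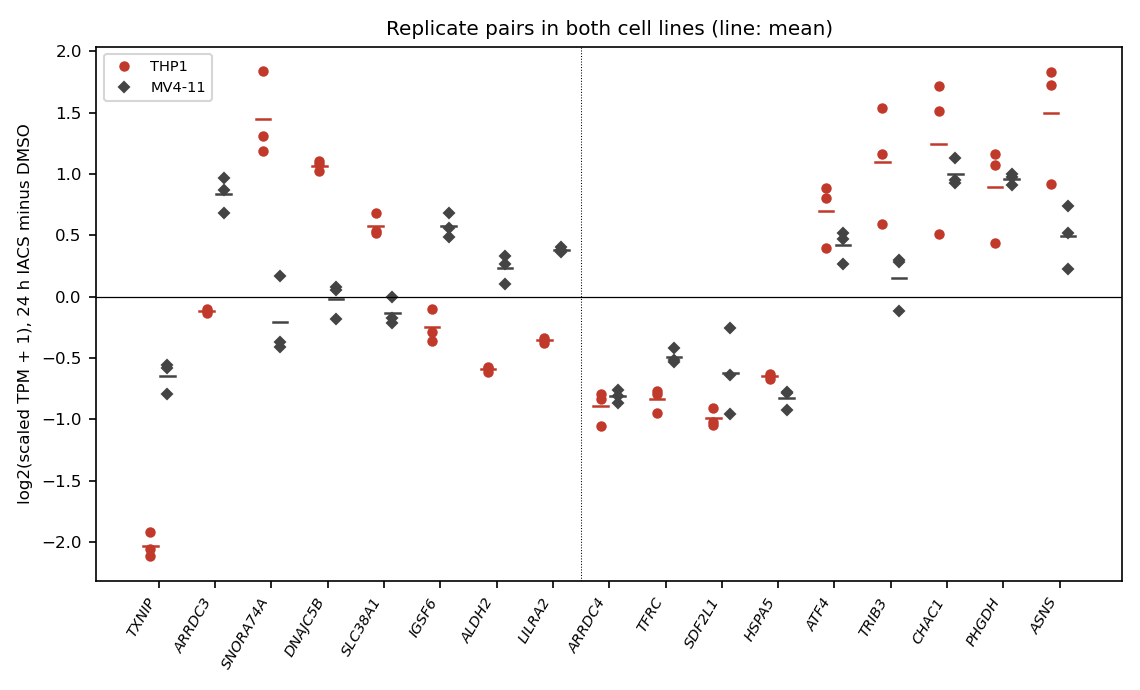
Difference between 24 h IACS and DMSO on the log2(scaled TPM + 1) scale in each of 3 replicate pairs of THP1 (circles) and MV4-11 (diamonds), with lines for the mean. Left of the dotted line are 8 genes whose effects differed between the cell lines, such as *TXNIP* (-2.03 and -0.64), and right of it genes whose difference was not called.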

How the data were processed

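RNA sequencing libraries of THP1 and MV4-11 cells (3 for each of DMSO, 8 h and 24 h of 50 nM IACS) were made by the authors with a TruSeq kit that does not mark strand, sequenced as paired-end reads, aligned to GRCh38 and quantified in CLC Genomics Workbench. The annotation release is not given in the sources used here. The authors deposited TPM for 45372 symbols, with no column left unmapped (0). TPM fix the sum of each library and remove the depth. Whole reads (or read pairs, which cannot be told apart) were recovered within 0.02 of a read for 14897 of 14915 genes (99.88%), and served for depth and 1 alternative. Replicates differed beyond counting noise (5.76 to 35.2 times the chi-square that counting alone gives).

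For 24 h against DMSO, the genes of the rule were scaled by the median of ratios, transformed as log2(TPM + 1) and tested two-sided with limma 3.58.1 (R 4.3.3, lmFit and eBayes with a variance trend) with the replicate number as a block, leaving 2 residual degrees of freedom. Deviations from the group means correlated by 0.134, 0.180 and 0.332 between libraries with the same number. Between libraries with different numbers the correlations ran from -0.228 to 0.122. The tests of 24 h against 8 h (9 libraries) and of THP1 against MV4-11 (an interaction over 12 libraries) were made likewise. P-values measure the spread between these libraries that is left after differences between replicate numbers are removed. The fit was also run on simulated data with known changes, with noise levels that were set and not taken from these libraries. That run checks the code and says nothing about the calls reported here.

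The comparison, its rule, the 33 gene lists (756 of 762 entries found, 42 under an older symbol) and the alternatives were chosen with earlier results of these data known. Lists were written from general knowledge and are described by counts and medians. Named genes are the 10 largest rises and falls among calls with at least 5 TPM in the higher group and the same sign in 3 pairs, up to 4 called members a list in each direction or the largest uncalled one, the 5 largest calls in each direction of the other comparisons, and *ATF4*, *TXNIP*, *ARRDC4*, *TFRC*, *CHAC1*, *ASNS*, *TRIB3* and *MCL1*. A few other members are given for contrast and were chosen after their values were seen. A few members that this rule names are not reported here.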

Additional observations from a re-analysis of the deposited data

Results flagged for a closer look

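The effects of IACS at 24 h and 8 h in THP1 differed by a direct test for 77 genes called higher and 54 called lower at 24 h. The rises with the largest difference were *MT-ND6* (1.83), AL109914.1 (1.33), *INSIG1* (1.11), *CSPG4* (0.98) and AC015813.2 (0.97). Among the falls, *RNA5-8SN1* (-4.01), RF00002_5 (-3.74), *RNA5-8SN3* (-3.62) and *RNA5-8SN2* (-3.54), copies of 1 ribosomal RNA, came before *S100P* (-1.13).

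The 24 h effect differed between THP1 and MV4-11, by the interaction, for 5 genes called higher and 11 called lower in THP1. The differences were 1.65 for *SNORA74A*, 1.09 for *DNAJC5B* and 0.71 for *SLC38A1* upward. Downward they were -1.39 for *TXNIP*, -0.96 for *ARRDC3*, -0.82 for *IGSF6*, -0.82 for *ALDH2* and -0.74 for *LILRA2*.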

How the results depend on the processing

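Libraries with the same replicate number were treated as pairs, which the sources do not state. Without the replicate block the calls at 24 h against DMSO were 4 higher and 9 lower. Against 8 h they were 33 and 35, and for the difference between the cell lines 0 and 1. Without the block, 36 of the 68 named genes no longer passed the thresholds. Of the other 32, only *TXNIP*, *ARRDC4*, *FTH1*, *SDF2L1*, *CRELD2* and *PFKFB4* were called, and the rest were called in neither fit.

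With 1 replicate number left out, calls against DMSO ranged from 0 to 9 higher and from 1 to 11 lower, against 8 h from 0 to 1 in both directions, and for the cell line difference from 0 to 8 higher and from 0 to 0 lower. At 24 h against DMSO, calls were 0 higher and 0 lower with no filter on low values, 36 and 44 for genes averaging 10 TPM or more, 0 and 2 without the variance trend, 451 and 579 without the fold threshold, and 129 and 122 at an unadjusted p. TPM as deposited gave 274 lower with no scaling, and 1 higher and 7 lower with neither scaling nor replicate block. Against 8 h, calls were 124 and 85 with a pseudocount of 0.1, 634 and 933 without the fold threshold, 29 higher with no filter and 33 higher at 10 TPM. For the cell lines, calls were 9 and 362 with no scaling, 0 and 3 with a pseudocount of 0.1, 1 and 2 with no filter, 2 and 34 at 10 TPM, 0 and 1 without the variance trend, and 2 higher with scaling factors from genes of at least 10 TPM. Limma with voom weights on the recovered reads, chosen after seeing the data as was the fit with neither scaling nor block, gave 206 and 134 against DMSO (74 and 67 of the calls shared), 145 and 98 against 8 h, and 30 and 86 for the cell lines. The cause of these shifts was not tested. *MCL1* was the one named gene that reversed, at -0.074 with no scaling, with or without the block. Genes near 1 TPM, such as *CHAC1*, rest on few reads, and with 2 residual degrees of freedom smaller changes can be missed.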
